A study of Mus musculus with 2 samples.

Results

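The nuclear-encoded subunits of the mitochondrial respiratory chain were taken as the protein-coding mouse genes whose GENCODE symbol starts with Ndufa, Ndufab, Ndufb, Ndufc, Ndufs or Ndufv and a number, is Sdha, Sdhb, Sdhc, Sdhd, Cyc1 or Cycs, starts with Uqcr or Atp5, or starts with Cox and a number of 4 to 8. By gene identifier 87 such genes were found in the gene tables of both libraries, of 21474 protein-coding genes and 43346 gene rows. They fall into 36 genes of complex I, 4 of complex II, 9 of complex III, 20 of complex IV, 17 of complex V and the single gene of cytochrome c. Ndufa4 and Ndufa4l2 were grouped with complex IV, where their products are now placed. The symbol rule also takes in Atp5s and Cox7a2l, which are a coupling factor and a supercomplex assembly factor rather than structural subunits.

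Polyadenylated RNA of whole lung from 1 adult female C57BL/6J mouse aged 10 weeks was sequenced in 2 libraries, replicate 2 and replicate 1, which the labels give as technical replicates of 1 biological replicate. Replicate 2 was made later than replicate 1. The mouse carried no stated allele or treatment, and there is 1 group, so the only comparison is between the libraries. With 1 library on each side there is no replicate check of a difference, no p-value is given, and each SD is over n = 2 libraries of the same animal.

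The respiratory chain passes electrons from NADH (complex I) and succinate (complex II) through ubiquinone, complex III and cytochrome c to oxygen at complex IV, and complex V uses the proton gradient to make ATP. Complexes I, III, IV and V each join subunits encoded in the nucleus to subunits encoded in mitochondrial DNA, while complex II is wholly nuclear. Nuclear subunits are usually made from short, abundant mRNAs in every cell type, and a few complex IV subunits have paralogs made in lung, muscle or testis.

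Replicate 2 held 17110871 rounded expected counts and replicate 1 held 16104423. Markers of lung epithelium summed to 231600 TPM (transcripts per 1000000) in replicate 2, against 26190 TPM in replicate 1. Of these sums Scgb1a1 alone held 174257 TPM in replicate 2 and 17498 TPM in replicate 1. By scaled counts 8 of 11 markers were over 2-fold higher in replicate 2 and 1 was lower. These are 72.7% and 9.09%, beside 39.3% and 28.2% of all genes. Lamp3 was the lower one, with 191 TPM in replicate 2 against 687 TPM in replicate 1. At 1 TPM or more in both libraries were 10 of 11, so the labelled tissue was recognisable in each. The libraries stood far apart over the whole transcriptome. Of 14139 genes with a mean of at least 1 TPM, 39.3% were over 2-fold higher in replicate 2 and 28.2% over 2-fold lower. Libraries were scaled with TMM, which sets 1 factor per library and assumes that most genes do not differ. Here 4596 of these genes lay within 2-fold, so this assumption was not met, and other scalings are given below. The median log2 ratio of all these genes, always replicate 2 over replicate 1, was 0.19.

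The members with the highest ratios were rich in G and C, and those with more counts in replicate 1 were poorer in G and C. The first 150 coding bases are shown for 3 pairs of subunits, each pair from 1 complex, since the ratios described below follow this feature. They come from GENCODE M21 transcripts on GRCm38, the same assembly as mm10, and are written 5′ to 3′ with every G and C in capitals. The first of each pair was far higher in replicate 2 and the second was lower in replicate 2. The pairs are examples, and not every gene shown has the highest or lowest ratio of its complex. Ndufs7 (ENSMUSG00000020153.10) lies at chr10:80249121-80256794 on the plus strand, Ndufv2 (ENSMUSG00000024099.10) at chr17:66078638-66101559 on the minus strand, Cyc1 (ENSMUSG00000022551.7) at chr15:76343523-76346260 on the plus strand, Uqcrb (ENSMUSG00000021520.4) at chr13:66900617-66905378 on the minus strand, Atp5d (ENSMUSG00000003072.11) at chr10:80138632-80145818 on the plus strand and Atp5j (ENSMUSG00000022890.9) at chr16:84827866-84835625 on the minus strand.
Ndufs7: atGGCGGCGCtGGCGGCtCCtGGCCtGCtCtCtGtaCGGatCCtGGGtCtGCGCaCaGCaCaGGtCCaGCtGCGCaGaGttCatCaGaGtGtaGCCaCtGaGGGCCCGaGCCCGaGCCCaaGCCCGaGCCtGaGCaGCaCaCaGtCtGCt
Ndufv2: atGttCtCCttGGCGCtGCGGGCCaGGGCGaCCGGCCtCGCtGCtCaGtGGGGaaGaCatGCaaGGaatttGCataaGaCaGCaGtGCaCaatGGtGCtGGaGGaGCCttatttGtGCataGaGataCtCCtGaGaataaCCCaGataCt
Cyc1: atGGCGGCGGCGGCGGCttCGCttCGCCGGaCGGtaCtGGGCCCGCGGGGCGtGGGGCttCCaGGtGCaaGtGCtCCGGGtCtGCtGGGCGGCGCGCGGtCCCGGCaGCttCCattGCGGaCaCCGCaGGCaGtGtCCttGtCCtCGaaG
Uqcrb: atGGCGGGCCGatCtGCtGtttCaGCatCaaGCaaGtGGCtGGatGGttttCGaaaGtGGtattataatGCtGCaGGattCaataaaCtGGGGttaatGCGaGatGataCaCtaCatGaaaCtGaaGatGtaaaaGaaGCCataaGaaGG
Atp5d: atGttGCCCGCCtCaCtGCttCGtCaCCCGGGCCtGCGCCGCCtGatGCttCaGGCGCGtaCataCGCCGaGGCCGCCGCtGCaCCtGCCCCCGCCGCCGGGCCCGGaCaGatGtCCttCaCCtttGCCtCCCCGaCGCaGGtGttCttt
Atp5j: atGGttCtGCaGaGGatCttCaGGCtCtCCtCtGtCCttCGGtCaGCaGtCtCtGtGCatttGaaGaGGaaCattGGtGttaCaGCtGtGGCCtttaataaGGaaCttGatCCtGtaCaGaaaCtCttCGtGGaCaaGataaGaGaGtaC
In these stretches G and C made up 66% of Ndufs7 and 53.3% of Ndufv2, 72.7% of Cyc1 and 42.7% of Uqcrb, and 68.7% of Atp5d and 46% of Atp5j.

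Nearly all members were expressed in this lung. At a threshold of 1 TPM 85 of 87 members were detected in replicate 2 and 72 in replicate 1, so 72 were detected in both and 13 in replicate 2 alone. Of all 43346 gene rows, 11356 reached this threshold in each library. A further 2740 gene rows reached it only in replicate 2, and 775 only in replicate 1. The 2 members below 1 TPM in both libraries were Cox7b2 and Cox8c, the testis forms of 2 complex IV subunits. Cox7b2 had 0 counts in replicate 2 and 3 counts in replicate 1, and Cox8c had 0 counts in both. A count of 0 allows up to 0.175 counts per 1000000 in replicate 2 and 0.186 in replicate 1, taking 3 counts as the floor. No molecular identifiers are stated, so reads may repeat a molecule, and intervals and floors describe counting error alone.

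The members together held 23637 TPM, or 2.36% of the total, in replicate 2 and 14929 TPM, or 1.49%, in replicate 1, a mean of 19283 ± 6157 TPM (SD, n = 2). The median member had 220.3 TPM in replicate 2 against 58.04 TPM in replicate 1. In replicate 2 the middle 50% of the members lay between 118 and 343 TPM, against 11.4 to 210.1 TPM in replicate 1. Levels were therefore drawn together in replicate 2 and spread over several orders of magnitude in replicate 1. The SD of log2 TPM, with 0.1 TPM added, was 1.27 in replicate 2 and 3.54 in replicate 1 for the members. Over all genes tested it was also larger in replicate 1, at 2.14 in replicate 2 and 2.87 in replicate 1. Below 10 TPM were 3 members in replicate 2 and 23 in replicate 1. Under 10 counts were 2 members in replicate 2 and 18 in replicate 1, and 16 of those 18 had at least 100 counts in replicate 2. Over all 14139 genes tested the median was 11.36 TPM in replicate 2 against 7.78 TPM in replicate 1. Genes below 10 TPM or under 10 counts were not counted over all genes, so whether members differ in this was not tested.

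**Figure D1:**
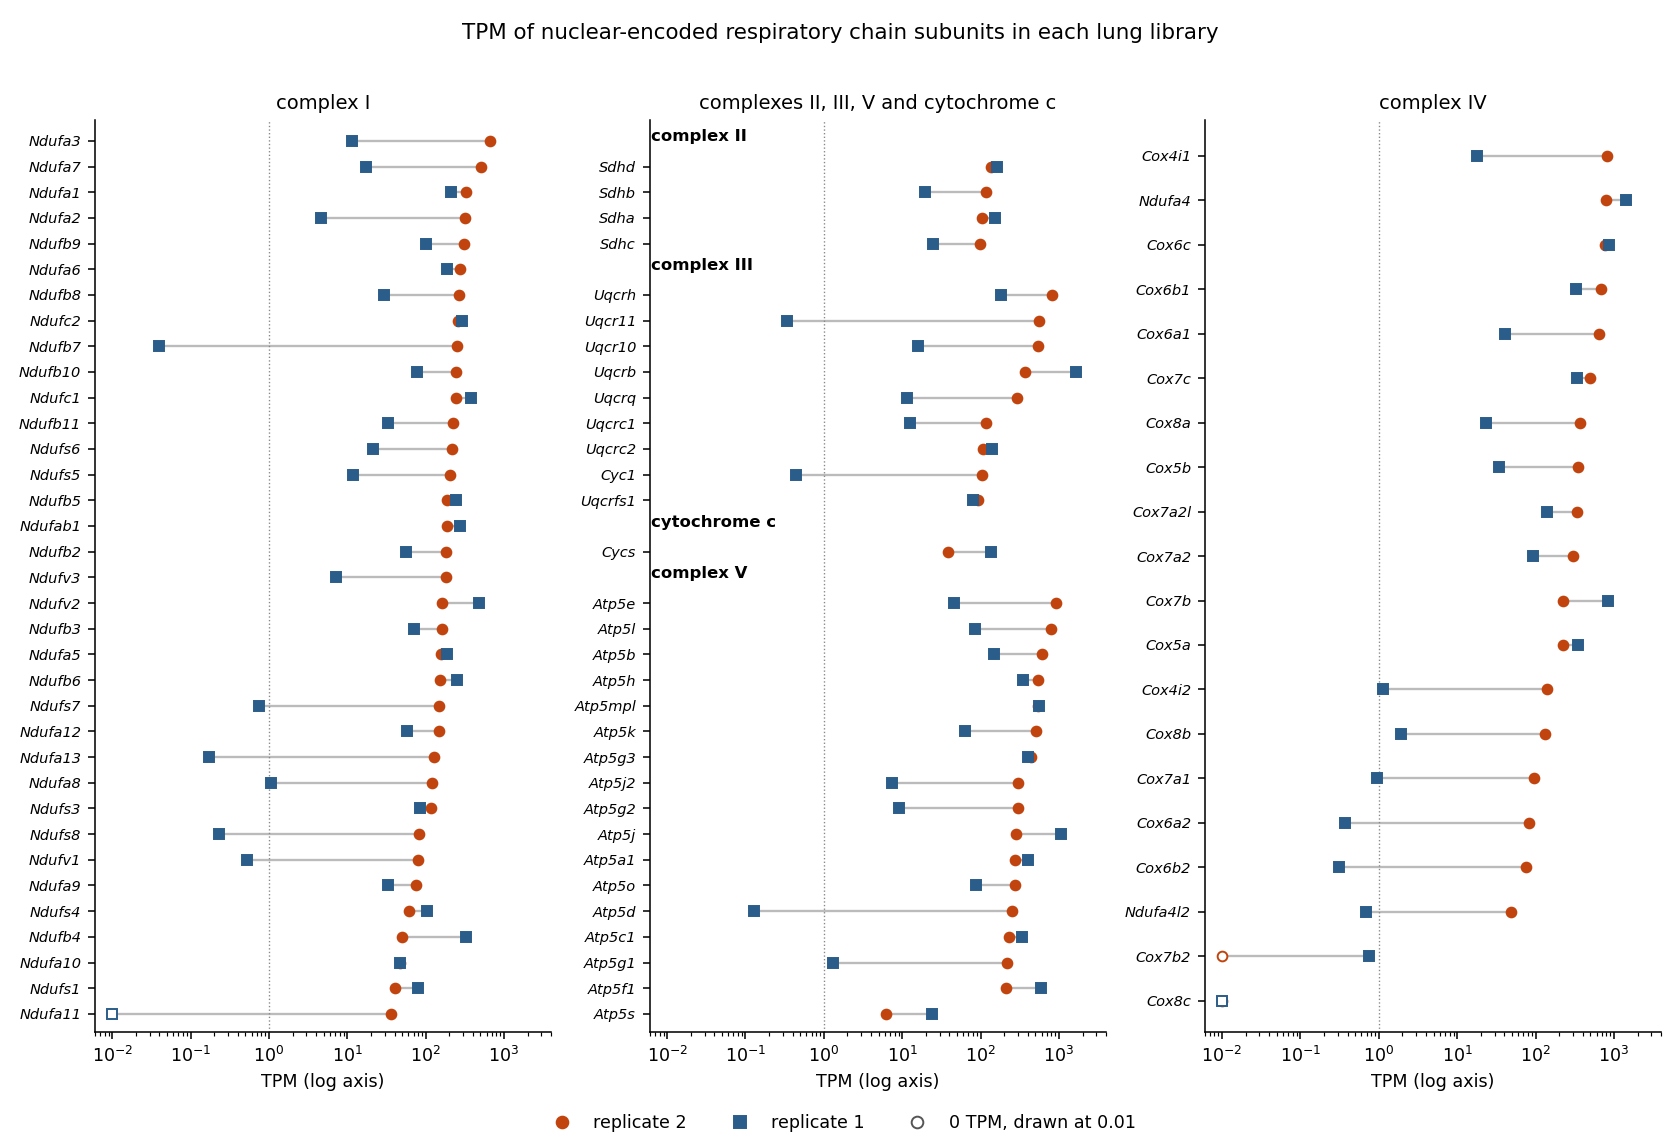
TPM (log axis) of 86 of the 87 members, grouped by complex and ordered by the level in replicate 2, with circles for replicate 2 and squares for replicate 1, the dotted line at 1 TPM, and open symbols for 0 TPM drawn at 0.01 (for Cox8c the symbols coincide). The circles of complex I form a narrow band from 35.99 to 652 TPM, while its squares reach from 0 to 475 TPM.

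Of the 85 members with a mean of at least 1 TPM, 54 were over 2-fold higher in replicate 2 and 7 over 2-fold lower, and 24 lay within 2-fold. This is 63.5% higher and 8.24% lower, beside 39.3% and 28.2% of all 14139 genes. The median log2 ratio of the 85 members was 2.07, beside 0.19 for all genes. The median was 1.62 in complex I, 1.30 in complex II, 4.94 in complex III, 3.80 in complex IV and 1.78 in complex V. Scaling by total counts moved the median of all genes to 0.45 and that of the members to 2.33, and all 54 members stayed over 2-fold higher, while 4 of the 7 stayed over 2-fold lower. Across the 85 members the TPM of replicate 2 and of replicate 1 had a Spearman rho of 0.31, against 0.50 across all genes tested. Genes of 1 library pair are not independent replicates, and these rho values only describe the pair.

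**Figure D2:**
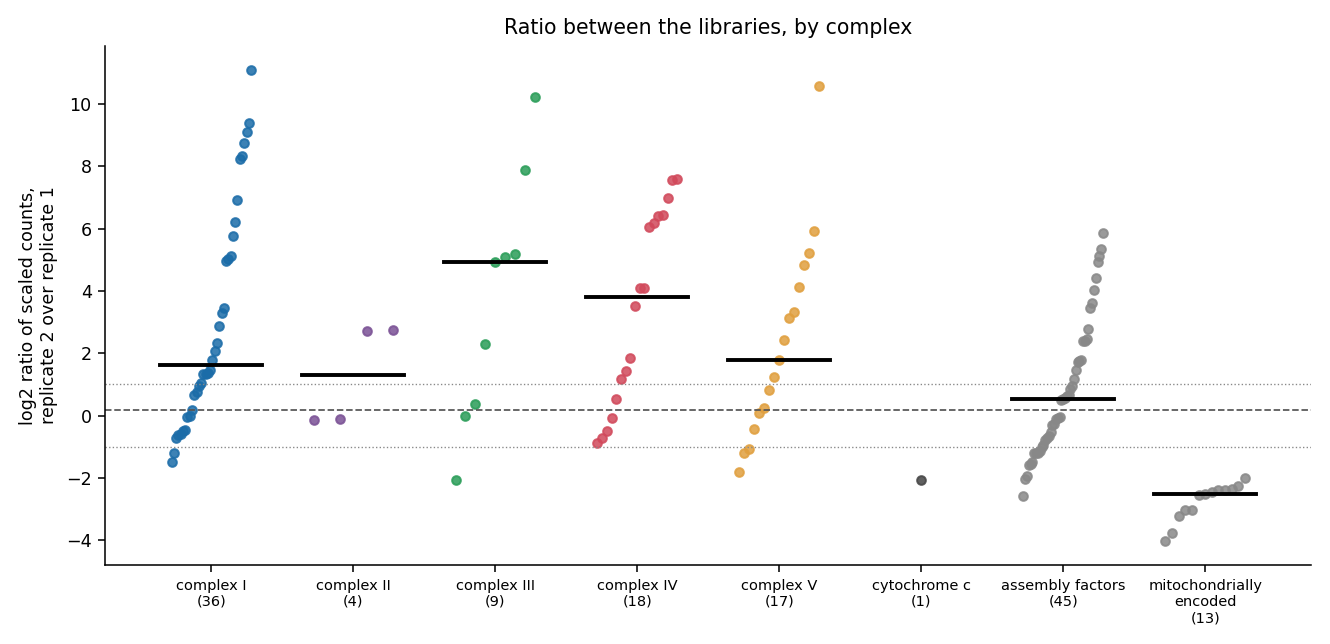
Log2 ratio of TMM-scaled counts, replicate 2 over replicate 1, for each tested member by complex (number of genes in parentheses), with assembly factors and mitochondrially encoded subunits in grey, bars at group medians, dotted lines at 2-fold and a dashed line at 0.19, the median of all genes. Every complex with several members reaches from below 0 to above 2, and all 13 mitochondrially encoded genes lie below −2.

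Complex I takes electrons from NADH. Its nuclear-encoded core subunits include those that carry the flavin and the iron-sulphur clusters. Ndufv1, which binds NADH and flavin, had 79.3 TPM from 1732 counts in replicate 2, against 0.52 TPM from 4 counts in replicate 1. Its partner Ndufv2, an iron-sulphur protein, had 162 TPM from 2230 counts in replicate 2 and 475 TPM from 4023 counts in replicate 1. By TPM Ndufv2 stood at 2.05 times the level of Ndufv1 in replicate 2 and at 913 times in replicate 1. Ndufs1, which holds several iron-sulphur clusters of the same module, had 40.4 TPM in replicate 2 against 80.4 TPM in replicate 1, a log2 ratio of −0.71 and within 2-fold.

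Other core subunits lie on the side of the arm towards ubiquinone. Ndufs3 had 116 TPM in replicate 2 against 83.4 TPM in replicate 1, and was 2.58-fold higher in replicate 2 by counts (2.33 to 2.87). Ndufs7 and Ndufs8 carry the clusters nearest to ubiquinone. Ndufs7 had 148 TPM from 1367 counts in replicate 2 and 0.74 TPM from 2 counts in replicate 1, a ratio of 536-fold with an interval of 148 to 4434. Ndufs8 had 83.2 TPM from 1024 counts in replicate 2 and 0.23 TPM from 2 counts in replicate 1, a ratio of 402-fold with an interval of 111 to 3322. Of the core subunits named here, Ndufv1, Ndufs7 and Ndufs8 were thus above 1 TPM in replicate 2 and below 1 TPM in replicate 1.

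The 29 accessory subunits of complex I surround this core, and 18 of them were over 2-fold higher in replicate 2 and 1 was over 2-fold lower, with a median log2 ratio of 1.46. These are 62.1% and 3.45%, beside 39.3% and 28.2% of all genes. Ndufa3, a small membrane subunit, had the highest mean of complex I, with 652 TPM in replicate 2 against 11.4 TPM in replicate 1. Ndufa11, a membrane subunit with the lowest mean TPM of complex I, had 35.99 TPM from 1407 counts in replicate 2 and 0 counts in replicate 1. In replicate 2 Ndufs8 had fewer counts (1024) but more TPM (83.2), so this rank depends on the length by which counts were divided. Against the floor of 3 counts in replicate 1 Ndufa11 was at least 368-fold higher in replicate 2, while its exact interval begins at 299-fold. Ndufa13, also known as GRIM-19, had 129 TPM from 2153 counts in replicate 2 and 0.17 TPM from 2 counts in replicate 1, a ratio of 845-fold (234 to 6980). Ndufb7, a subunit of the intermembrane space, had 251 TPM from 1762 counts in replicate 2 and 0.04 TPM from 2 counts in replicate 1, a ratio of 691-fold (191 to 5713).

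Other accessory subunits lay within 2-fold. Ndufc2 had 257 TPM in replicate 2 against 287 TPM in replicate 1, with a log2 ratio of −0.04. Ndufb5 had 188 TPM in replicate 2 against 240.3 TPM in replicate 1, with a log2 ratio of −0.02. Ndufab1, the mitochondrial acyl carrier protein, had 187 TPM in replicate 2 against 272 TPM in replicate 1, with a log2 ratio of −0.46. Ndufs4, an accessory subunit whose loss in mice gives a model of Leigh syndrome, had 61.2 TPM in replicate 2 against 105 TPM in replicate 1, with a log2 ratio of −0.63. The lowest ratio of complex I was that of Ndufb4, with 517 counts in replicate 2 and 1134 in replicate 1, and it turns on a pseudogene described below. By these values the SD of log2 TPM among the 36 complex I genes was 0.97 in replicate 2 and 3.50 in replicate 1. That is beside 2.14 and 2.87 over all genes tested, with 0.1 TPM added to each value.

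Complex II oxidises succinate with 4 subunits, which split into pairs. Sdha, the flavoprotein, had 103 TPM from 4206 counts in replicate 2 and 154 TPM from 3596 counts in replicate 1, with a log2 ratio of −0.12. Sdhd, a membrane anchor, had 135 TPM from 2344 counts in replicate 2 and 160.5 TPM from 1988 counts in replicate 1, with a log2 ratio of −0.11. Sdhb, the iron-sulphur subunit, was 6.55-fold higher in replicate 2 (5.67 to 7.59), with 116 TPM in replicate 2 against 19.6 TPM in replicate 1. Sdhc, the other anchor, was 6.72-fold higher (5.86 to 7.74), with 97.6 TPM in replicate 2 against 24.7 TPM in replicate 1. In replicate 2 all 4 subunits lay between 97.6 and 135 TPM, and in replicate 1 they lay between 19.6 and 160.5 TPM.

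Complex III passes electrons from ubiquinol to cytochrome c, and 6 of its 9 nuclear members were over 2-fold higher in replicate 2 and 1 was over 2-fold lower (66.7% and 11.1%, beside 39.3% and 28.2% of all genes). The catalytic subunits are cytochrome c1 (Cyc1), the Rieske iron-sulphur protein (Uqcrfs1) and the mitochondrially encoded cytochrome b. Cyc1 had 104 TPM from 1655 counts in replicate 2 and 0.44 TPM from 5 counts in replicate 1, a ratio of 260-fold with an interval of 111 to 801. Uqcrfs1 had 93.5 TPM from 1741 counts in replicate 2 and 80.4 TPM from 1065 counts in replicate 1, a ratio of 1.28-fold. Cyc1 and Uqcrfs1 thus stood within 1.11-fold of each other by TPM in replicate 2 and 183-fold apart in replicate 1. Cytochrome b (mt-Cytb) was far above both, with 2573 TPM in replicate 2 against 14658 TPM in replicate 1.

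The core proteins of complex III also parted. Uqcrc1 had 118 TPM in replicate 2 against 12.7 TPM in replicate 1, and Uqcrc2 had 106 TPM in replicate 2 against 139 TPM in replicate 1. Among the small subunits, Uqcrb had the highest mean, with 365 TPM from 2029 counts in replicate 2 and 1654 TPM from 6596 counts in replicate 1. It was 4.14-fold lower in replicate 2 and, at rank 293 of all genes in replicate 2 and rank 47 in replicate 1, was the member of highest TPM in replicate 1. Uqcrh, the hinge protein, had 810.0 TPM in replicate 2 against 180.4 TPM in replicate 1. Uqcr11 had 549 TPM from 2281 counts in replicate 2 and 0.34 TPM from 1 count in replicate 1, a ratio of 1790.0-fold whose interval runs from 321 to 70732. The other small subunits followed the same direction. Uqcr10 had 542 TPM in replicate 2 against 16.1 TPM in replicate 1, and Uqcrq had 293 TPM in replicate 2 against 11.6 TPM in replicate 1.

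Cytochrome c, the soluble carrier between complexes III and IV, is encoded in somatic cells by Cycs. It had 37.9 TPM from 1308 counts in replicate 2 and 136 TPM from 4297 counts in replicate 1, and was 4.19-fold lower in replicate 2, the lowest ratio of all 85 members tested.

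Complex IV reduces oxygen to water. Of its 18 nuclear members tested 13 were over 2-fold higher in replicate 2, none was over 2-fold lower and 5 lay within 2-fold. The higher ones are 72.2% of those tested, beside 39.3% of all genes, and 28.2% of all genes were lower. The subunits present in all tissues were the most abundant. Ndufa4 had 798 TPM from 3891 counts in replicate 2 and 1432 TPM from 5020 counts in replicate 1, and Cox6c had 766 TPM from 3942 counts in replicate 2 and 866 TPM from 3266 counts in replicate 1. Cox4i1, the ubiquitous form of subunit 4, had 816 TPM from 7191 counts in replicate 2 and 18.0 TPM from 66 counts in replicate 1, a ratio of 85.5-fold (67.1 to 111). It ranked 144 among all genes in replicate 2 and 4839 in replicate 1. Cox7b had the lowest ratio of complex IV, with 225 TPM in replicate 2 against 830 TPM in replicate 1 and a log2 ratio of −0.87.

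Each complex IV paralog of restricted expression was detected in replicate 2 except the testis forms Cox7b2 and Cox8c, and each had at most 7 counts in replicate 1. Cox4i2, the lung form of subunit 4, known in rodents for a part in oxygen sensing by pulmonary vessels, had 140 TPM from 1198 counts in replicate 2 and 1.13 TPM from 7 counts in replicate 1. It made up 14.6% of the TPM of the subunit 4 genes in replicate 2 and 5.90% in replicate 1. Ndufa4l2, a hypoxia-inducible paralog of Ndufa4 that is known from lung pericytes, had 49.2 TPM from 603 counts in replicate 2 and 0.69 TPM from 6 counts in replicate 1. It was the tested complex IV gene of lowest mean.

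The forms known from heart and skeletal muscle were Cox6a2, Cox7a1 and Cox8b. Cox6a2 had 82.1 TPM from 615 counts in replicate 2 and 0.37 TPM from 2 counts in replicate 1, and Cox6a1, the ubiquitous form, had 637 TPM in replicate 2 against 40.8 TPM in replicate 1. Cox7a1 had 95.9 TPM from 277 counts in replicate 2 and 0.96 TPM from 2 counts in replicate 1, and Cox7a2 had 304 TPM in replicate 2 against 92.0 TPM in replicate 1. Cox8b had 132 TPM from 377 counts in replicate 2 and 1.94 TPM from 4 counts in replicate 1, and Cox8a had 374 TPM in replicate 2 against 23.7 TPM in replicate 1. In replicate 2 the muscle form thus held 11.4% of the Cox6a pair, 24.0% of the Cox7a1 and Cox7a2 pair and 26.1% of the Cox8 pair, against 0.90%, 1.03% and 7.58% in replicate 1. Cox6b2, known from testis, had 74.7 TPM from 359 counts in replicate 2 and 0.31 TPM from 1 count in replicate 1, and Cox6b1 had 676 TPM in replicate 2 against 324 TPM in replicate 1. The coding sequences of Cox4i2 and Cox4i1 are 62.7% identical over an alignment, those of Cox7a1 and Cox7a2 59.8%, those of Cox6a2 and Cox6a1 52.0% and those of Cox8b and Cox8a 51.9%.

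**Figure D3:**
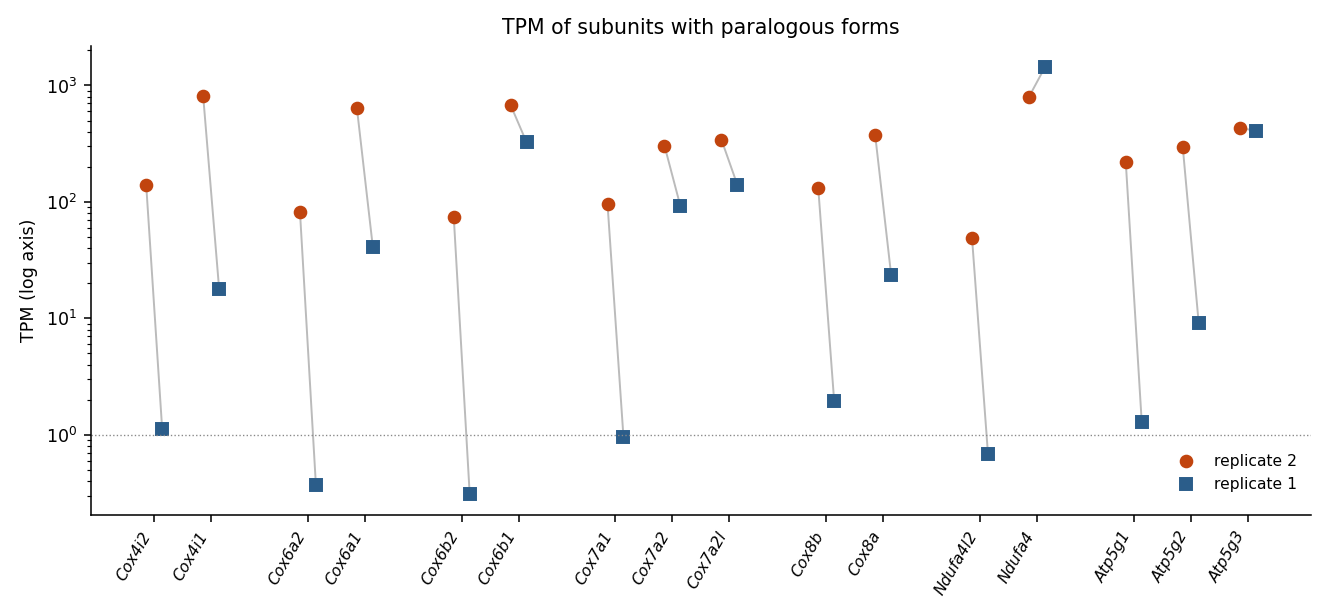
TPM (log axis) of subunits with paralogous forms, in replicate 2 (circles) and replicate 1 (squares), with the dotted line at 1 TPM. In each set the gene drawn first is the lowest in both libraries, at 49.2 TPM or more in replicate 2 and at 1.94 TPM or less in replicate 1.

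Markers of other cell types were counted beside these forms. Of 12 cardiomyocyte markers 9 were at 1 TPM or more in both libraries, and they summed to 1551 TPM in replicate 2 against 184 TPM in replicate 1. Myl7, an atrial myosin light chain, had 465 TPM in replicate 2 against 18.5 TPM in replicate 1, Myh6 had 44.2 TPM in replicate 2 against 0.80 TPM in replicate 1, and the ventricular marker Myl2 had 1 count in replicate 2 and 0 counts in replicate 1. Of the 11 tested, 9 were past 2-fold and higher in replicate 2, or 81.8%, beside 39.3% of all genes. Pln was past 2-fold and lower (9.09%, beside 28.2% of all genes), with 10.2 TPM in replicate 2 against 39.6 TPM in replicate 1. Ryr2 lay within 2-fold, with 0.93 TPM in replicate 2 against 1.59 TPM in replicate 1. The 8 skeletal muscle markers summed to 37.95 TPM in replicate 2 against 9.45 TPM in replicate 1, with Myh2 and Myh4 at 0 counts in both libraries and Acta1, Myh1, Tnni2 and Ckm at 0 counts in replicate 1. The 9 pericyte markers summed to 186 TPM in replicate 2 against 264 TPM in replicate 1, and none was at 0 counts. They went both ways, 5 past 2-fold and higher in replicate 2 and 4 past it and lower. For pericyte markers this is 55.6% and 44.4%, beside 39.3% and 28.2% of all genes. Pdgfrb had 25.8 TPM in replicate 2 against 2.45 TPM in replicate 1, while Gucy1a1, the largest part of the sum in replicate 1, had 49.2 TPM in replicate 2 against 206 TPM in replicate 1. The 6 smooth muscle markers summed to 876 TPM in replicate 2 against 98.8 TPM in replicate 1. The 5 brown adipocyte markers summed to 44.8 TPM in replicate 2 against 20.99 TPM in replicate 1, Ucp1 among them at 25.3 TPM in replicate 2 against 17.7 TPM in replicate 1 and Cpt1b at 0 counts in replicate 1. The 7 erythroid markers summed to 41529 TPM in replicate 2 against 2009 TPM in replicate 1, with Slc4a1 at 7 counts in replicate 2 and 0 in replicate 1. Base composition differed among these markers, with 54.9% G and C for Myl7 and 55.0% for Pdgfrb, against 43.4% for Pln and 47.3% for Gucy1a1. With the GC trend described below subtracted, 8 of 11 cardiomyocyte markers (72.7%) were past 2-fold and higher in replicate 2, and 0 were lower. For pericyte markers it was 22.2% on each side, beside 22.6% and 20.5% of all genes. The part of these cells in the levels of the paralogs was not tested. Both libraries come from 1 biological replicate. In whole tissue few cells of a type and little RNA per cell cannot be told apart.

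Complex V makes ATP at its F1 head, which turns on a ring of c subunits. Of its 17 nuclear members 10 passed 2-fold in favour of replicate 2 and 3 in favour of replicate 1, or 58.8% and 17.6%, beside 39.3% and 28.2% of all genes. Atp5b, the catalytic beta subunit, had 606 TPM from 12010 counts in replicate 2 and 148 TPM from 2742 counts in replicate 1, a ratio of 3.44-fold (3.30 to 3.58). Atp5a1, the alpha subunit that shares the head with it, had 275 TPM from 9849 counts in replicate 2 and 399 TPM from 4385 counts in replicate 1, so that its counts were higher and its TPM lower in replicate 2. Atp5c1, the gamma subunit of the central stalk, had 227 TPM in replicate 2 against 341 TPM in replicate 1, with a log2 ratio of −0.43.

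The other parts of the central stalk were over 2-fold higher in replicate 2. Atp5d, the delta subunit, had 248 TPM from 2938 counts in replicate 2 and 0.13 TPM from 1 count in replicate 1, a ratio of 2306-fold with an interval of 413 to 91097. Atp5e, the epsilon subunit, had the highest TPM of all members in replicate 2, 921 TPM from 3498 counts, against 46.2 TPM from 155 counts in replicate 1. Of the peripheral stalk, Atp5f1 (subunit b) had 214 TPM in replicate 2 against 598 TPM in replicate 1 and was 2.12-fold lower in replicate 2. Atp5j (factor 6) had the highest mean of complex V, with 285 TPM from 2350 counts in replicate 2 and 1054 TPM from 4267 counts in replicate 1, and was 2.31-fold lower in replicate 2. Atp5h (subunit d) was 2.35-fold higher, with 542 TPM in replicate 2 against 349 TPM in replicate 1. Atp5o, the oligomycin sensitivity protein, was 5.36-fold higher, with 274 TPM in replicate 2 against 86.6 TPM in replicate 1.

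Subunit c is encoded by 3 genes whose mature proteins are the same and whose targeting sequences differ. Atp5g3 had 435 TPM from 3673 counts in replicate 2 and 406 TPM from 2450 counts in replicate 1. Atp5g2 had 298 TPM from 2569 counts in replicate 2 and 9.17 TPM from 54 counts in replicate 1, and Atp5g1 had 219 TPM from 1728 counts in replicate 2 and 1.29 TPM from 47 counts in replicate 1. The 3 genes were of like level in replicate 2, with Atp5g3 at 45.7% of their sum, while in replicate 1 Atp5g3 held 97.5%. The TPM of Atp5g1 rests on an effective length of 500 bases in replicate 2 and 3220 in replicate 1, where another transcript led. Atp5g2 and Atp5g1 also share 87.4% and 66.0% of their 50-base words with other genes. Atp5mpl, a small membrane protein of the complex, lay within 2-fold, with 539.9 TPM in replicate 2 against 552 TPM in replicate 1. Atp5s, the coupling factor B, had the lowest mean of complex V, with 6.13 TPM from 126 counts in replicate 2 and 23.8 TPM from 348 counts in replicate 1, and was 3.52-fold lower in replicate 2.

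The ratios of the members followed the base composition of their transcripts, taken as the mean share of G and C over the annotated transcripts of a gene. Over 85 members the Spearman rho of log2 ratio and this share was 0.85, and over 14067 genes tested it was 0.82. Within complexes it was 0.88 over 36 genes of complex I, 0.93 over 9 of complex III, 0.74 over 18 of complex IV and 0.75 over 17 of complex V. The points of each correlation share the same 2 libraries. With the length of the main transcript rho was −0.08 over the 85 members. The TPM of the members had a rho of −0.05 with base composition in replicate 2 and −0.79 in replicate 1.

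When the members were ranked by this share and divided into 3 groups, the 28 richest in G and C (53.8 to 60.8%) were each over 2-fold higher in replicate 2, with a median log2 ratio of 6.30, beside 84.1% of the 3938 genes in that range and a median of 3.43. Their median level was 197 TPM in replicate 2 against 1.53 TPM in replicate 1. In the middle group (48.9 to 53.4%) 20 of 28 members were past 2-fold and higher in replicate 2 and 1 was lower, with a median of 1.94, beside 41.3% and 11.8% of 3650 genes and a median of 0.61. In the group poorest in G and C (41.3 to 48.8%) 6 of 29 members were past 2-fold and higher in replicate 2 and 6 were lower, with a median of −0.12, beside 3.65% and 53.7% of 4932 genes and a median of −1.08. The median level of that group was 225 TPM in replicate 2 against 189 TPM in replicate 1. The members thus lay above the median of genes of like composition in each group, which is a description with no test.

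**Figure D4:**
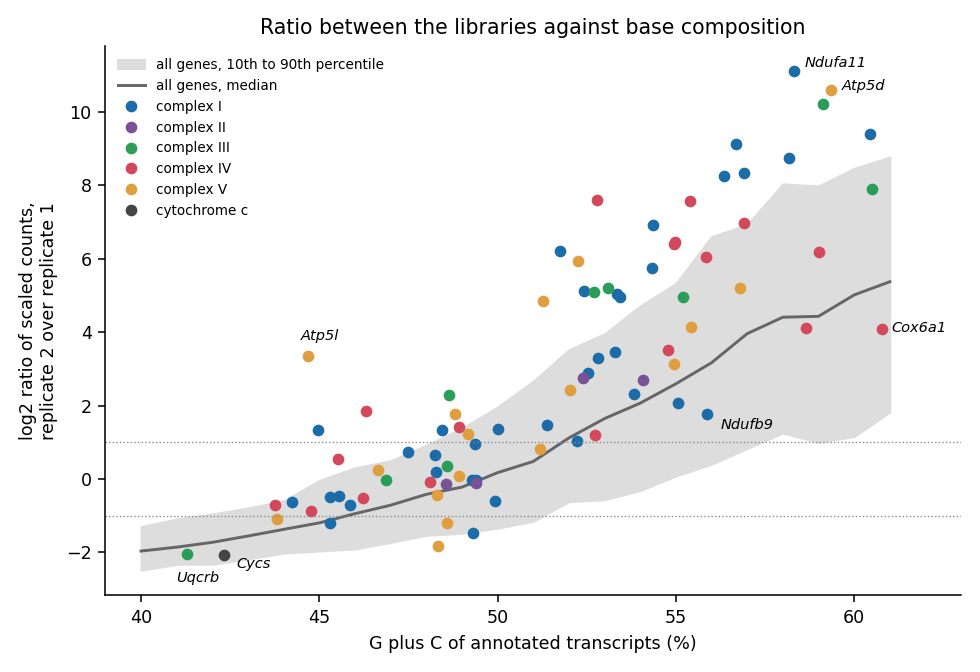
Log2 ratio of TMM-scaled counts, replicate 2 over replicate 1, against the share of G and C in annotated transcripts (%), with members as points coloured by complex, the median of all genes as a line and their 10th to 90th percentile as a grey band, and dotted lines at 2-fold. Members climb from Cycs at −2.07 and Uqcrb at −2.05 to Ndufa11 at 11.1, and many of those rich in G and C lie over the grey band.

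When the trend of the ratio on base composition over all genes was subtracted, 47 of the 85 members lay past 2-fold on the higher side in replicate 2 and 4 on the lower side, beside 22.6% and 20.5% of 14067 genes. Of the 54 members over 2-fold higher before, 44 were so afterwards and 6 turned negative. The median of the members after subtraction was 1.31 and that of all genes −0.02. By complex the remaining median was 1.23 in complex I, 0.38 in complex II, 2.52 in complex III, 1.56 in complex IV and 1.31 in complex V. Of the members over 2-fold lower before, 2 of 7 were still so, Ndufb4 with a remaining log2 value of −1.45 and Atp5s with −1.49. The other 2 past 2-fold were Ndufb9 at −1.26 and Cox6a1 at −1.18, both of which had been higher in replicate 2 before subtraction. The trend describes the pair of libraries as measured, and its source was not tested.

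The mitochondrially encoded subunits, which are poor in G and C, differed the other way. All 13 were past 2-fold and lower in replicate 2, beside 28.2% of all genes. Their median log2 ratio was −2.52, and their sums were 22941 TPM in replicate 2 against 165578 TPM in replicate 1. After subtraction of the trend 11 of 13 lay within 2-fold and 2 were over 2-fold lower, with a median of −0.24. In complex I the 36 nuclear genes summed to 6905 TPM in replicate 2 against 3680 TPM in replicate 1, while the 7 mitochondrial genes summed to 6681 TPM in replicate 2 against 45270 TPM in replicate 1. In complex IV the 20 nuclear genes summed to 6571 TPM in replicate 2 against 4489 TPM in replicate 1, and the 3 mitochondrial genes to 7430 TPM in replicate 2 against 62419 TPM in replicate 1. The genomes thus gave sums of like size in replicate 2, and in replicate 1 the mitochondrial sum was many times the nuclear one in each of the 4 shared complexes.

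**Figure D5:**
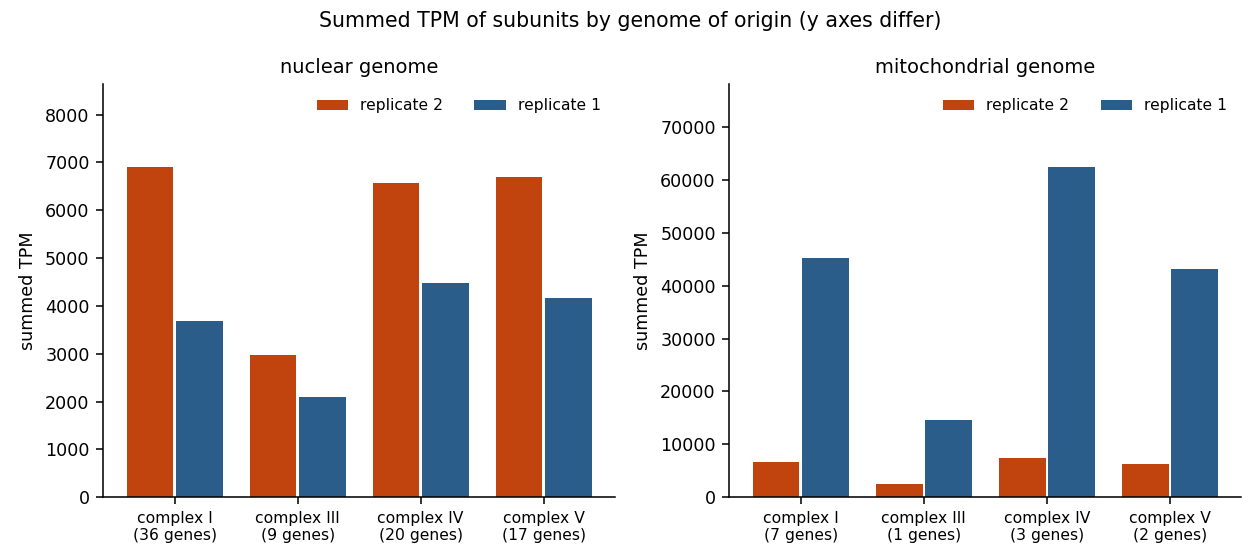
Summed TPM of nuclear-encoded (left panel) and mitochondrially encoded (right panel) subunits of complexes I, III, IV and V in replicate 2 and replicate 1, with y axes of different range. Nuclear sums are higher in replicate 2 in each complex, and mitochondrial sums are higher in replicate 1, up to 62419 TPM in complex IV.

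Genes that serve the complexes without being part of them were compared as lists. Of 45 assembly factors 17 were over 2-fold higher in replicate 2, 11 over 2-fold lower and 17 within 2-fold, with a median log2 ratio of 0.54, or 37.8% higher and 24.4% lower beside 39.3% and 28.2% of all genes. With the GC trend subtracted 11 assembly factors lay past 2-fold on the higher side and 2 on the lower side, with a median of 0.55. That is 24.4% and 4.44%, beside 22.6% and 20.5% of all genes. The sums of the assembly factors were nearly equal, 1601 TPM in replicate 2 against 1642 TPM in replicate 1. The assembly factors of highest mean were Cox16, with 117 TPM in replicate 2 against 371 TPM in replicate 1, Cox17, a copper chaperone, with 268 TPM in replicate 2 against 189 TPM in replicate 1, and Cox20, with 49.6 TPM in replicate 2 against 321 TPM in replicate 1. Of 12 tested regulators of mitochondrial gene expression, 3 passed 2-fold in favour of replicate 2 and 7 in favour of replicate 1. These are 25% and 58.3%, beside 39.3% and 28.2% of all genes. With the GC trend subtracted 2 regulators lay past 2-fold on the higher side and 2 on the lower side, with a median of −0.09. That is 16.7% on each side, beside 22.6% and 20.5% of all genes. Nrf1, the nuclear respiratory factor, had 12.2 TPM in replicate 2 against 6.78 TPM in replicate 1, Tfam had 23.2 TPM in replicate 2 against 94.6 TPM in replicate 1, and Esrra had 22.7 TPM from 682 counts in replicate 2 and 0 counts in replicate 1.

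The transcripts credited with a gene's reads differed as well. Of 84 members with a transcript above 0 in both libraries, 27 had a different most abundant transcript in replicate 2 and in replicate 1, and of the 55 with at least 100 counts in both, 14 did. The most abundant transcript was annotated as protein-coding for 81 members in replicate 2 and 66 in replicate 1. The same counts were not made over all genes, so whether members differ from other genes in this was not tested. For Atp5j the coding transcript Atp5j-201 held 60.6% of the gene in replicate 2 and 1.0% in replicate 1, where Atp5j-208, a retained intron, held 91.5%. For Cox7b the coding Cox7b-201 held 70.8% in replicate 2 and 5.6% in replicate 1, where the retained intron Cox7b-203 held 94.4%. For Atp5f1 the coding Atp5f1-201 held 74.5% in replicate 2 and 2.4% in replicate 1, where Atp5f1-203, annotated to nonsense-mediated decay, held 95.3%.

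These choices set the length by which counts were divided. Atp5a1 had an effective length of 2273 bases in replicate 2, against 984 in replicate 1, where Atp5a1-204, annotated to nonsense-mediated decay, held 77.1% of the gene, and its TPM and counts therefore point in opposite directions. Ndufa10 had 47.5 TPM in both libraries from 1037 counts in replicate 2 and 396 counts in replicate 1, with an effective length of 1384 bases in replicate 2, against 747 in replicate 1. By TPM instead of counts 51 of the 54 members stayed over 2-fold higher in replicate 2, and the sign turned for 3 members, Ndufa5, Atp5mpl and Atp5a1, none of them past 2-fold. With at least 100 counts in both libraries the other members with differing transcripts were Ndufc1, Ndufb5, Ndufb4, Ndufb10, Ndufb8, Ndufs3, Ndufa10, Sdhc, Atp5h and Atp5o. The remaining 13, with fewer counts in replicate 1, were Ndufb7, Ndufs5, Ndufs7, Ndufv1, Uqcr10, Uqcrq, Uqcrc1, Cox4i1, Cox4i2, Cox6b2, Atp5j2, Atp5d and Atp5g1.

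Respiratory chain genes have many processed pseudogenes, and reads can match both. Of the 87 members 20 shared over 10% of their 50-base words with another annotated gene, for 17 of them chiefly with a pseudogene. For Atp5l, Ndufb4, Ndufs5 and Cycs the partner held a large part of the pair's counts in at least 1 library. Atp5l, subunit g, had 4075 counts in replicate 2 and 315 in replicate 1, and its pseudogene Gm10221 had 285 counts in replicate 2 and 2155 in replicate 1. Summed, the pair had 4360 counts in replicate 2 and 2470 in replicate 1, a log2 ratio of 0.47 in place of 3.34 for Atp5l alone. Ndufb4 had 517 counts in replicate 2 and 1134 in replicate 1, and Ndufb4c had 1016 in replicate 2 and 115 in replicate 1, so that the pair gave −0.05 in place of −1.48. Cycs and Gm10053, which is annotated as protein-coding, had 2234 counts together in replicate 2 and 6836 in replicate 1, a log2 ratio of −1.96 beside −2.07 for Cycs alone. Ndufs5, a small accessory subunit, had 1086 counts in replicate 2 and 24 in replicate 1, where its pseudogene BC002163 had 57, and the pair gave 3.39 in place of 5.12. The authors' posterior SD of the count was above 5% of the count in a library for 3 members, Ndufs5, Atp5l and Atp5g2. The ratios of Atp5l, Ndufb4 and Ndufs5 are therefore uncertain. That of Cycs changed little with Gm10053 added, but Cycs shares words with 32 genes and only this partner was summed. Without the 21 tested members that share words or have fractional counts, 41 of the other 64 were past 2-fold and higher in replicate 2, and 3 were past it and lower.

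In the genome the members are spread over 19 chromosomes, with at most 9 on 1 chromosome and 3 on X. Promoter windows from RefSeq (GRCm38.p6, 250 bases before to 50 after the start) matched 70 of the 87 members, 2 of them by an older symbol. On both strands, 15.7% of the 70 held the letters GCGCATGC of the NRF1 motif, against 3.05% of 27025 genes, and 14.3% held AAGATGGC of the YY1 motif, against 3.19%. The letters CCGGAAGT of the ETS motif, bound by factors such as Gabpa, were in 5 of the 70 members (7.14%) and 4.31% of all genes. TCAAGGTCA of the oestrogen-related receptors was in 2 of the 70 members (2.86%) and 0.47% of all genes, so this contrast rests on 2 genes. The NRF1 letters and their reverse complement overlap in part, so 1 place can match on both strands, and a window was counted once for each motif. The window of Cycs, a known target of NRF1, and that of Uqcr11, the only member window with the letters of 2 of these motifs, are shown because they stand near the ends of the range of ratios and both hold the NRF1 letters. Cycs (ENSMUSG00000063694.5) has its window at chr6:50566520-50566819 on the minus strand and Uqcr11 (ENSMUSG00000020163.8) at chr10:80406772-80407071 on the minus strand, and capitals mark the matches, GCATGCGC being the NRF1 letters on the other strand and CCGGAAGT the ETS letters.
Cycs: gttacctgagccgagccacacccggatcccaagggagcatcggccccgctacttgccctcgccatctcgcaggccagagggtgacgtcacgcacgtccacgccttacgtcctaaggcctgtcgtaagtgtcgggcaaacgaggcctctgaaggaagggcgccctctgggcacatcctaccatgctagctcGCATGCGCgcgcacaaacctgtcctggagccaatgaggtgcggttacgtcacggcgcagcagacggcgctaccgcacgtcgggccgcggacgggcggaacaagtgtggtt
Uqcr11: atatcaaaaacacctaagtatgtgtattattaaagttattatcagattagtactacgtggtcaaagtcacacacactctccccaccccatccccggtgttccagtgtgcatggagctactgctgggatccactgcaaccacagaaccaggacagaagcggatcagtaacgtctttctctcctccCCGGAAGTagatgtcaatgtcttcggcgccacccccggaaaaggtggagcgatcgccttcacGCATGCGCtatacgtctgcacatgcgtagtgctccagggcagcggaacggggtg
Member windows were also richer in G and C, with a median of 57.7% against 52.7% of all windows, and held a median of 19 CpG against 7. A match is a description of the letters in the window and says nothing of binding in this lung.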

How the data were processed

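Expected counts per gene and transcript were, per the file headers, estimated by the authors, who shared a read among all its matching places. TPM values were, per the file headers, computed by the authors per 1000000 transcripts, in a standard and a posterior mean form. The percent of its gene that each transcript holds, lengths and effective lengths were also deposited by the authors. Per the deposited file descriptions the tables use assembly mm10 and annotation release M4, with aligner, quantifier and versions not given in the sources used here. Replicates were not pooled.

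Expected counts were rounded, and libraries were scaled with TMM factors of 1.10 (replicate 2) and 0.913 (replicate 1) from edgeR 4.0.16, with DESeq2 1.42.0 size factors as an alternative. Ratios used a prior of 0.5 counts, and their 95% intervals are exact Clopper-Pearson intervals. A gene was tested at a mean of at least 1 TPM and counted past 2-fold. The GC trend was fitted by lowess (span 0.3). The ratio and interval code was tested on simulated data. Coding sequences came from the longest protein-coding transcript listed for each gene, and symbols from GENCODE M21, where 42462 of 43346 identifiers matched. Versions were statsmodels 0.14.6, scipy 1.17.1, pandas 2.3.3, numpy 2.4.6 and Biopython 1.88 in Python 3.11.15, and R 4.3.3.

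Members and lists were chosen with earlier results of these data known. Members named are the 2 of highest and 1 of lowest mean TPM of each complex, core subunits and paralogs, the 8 highest and 8 lowest ratios with at least 100 counts, those at 0 in 1 library, and those with different main transcripts, and a few accessory subunits and stalk subunits were added after their values were seen. Values of 1 member are not reported here. Alternatives covered the scaling, the filter, the prior, TPM in place of counts, the GC trend, the grouping and members that share reads.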

Additional observations from a re-analysis of the deposited data

How the results depend on the processing

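The count of members over 2-fold higher in replicate 2, the median log2 ratio over all members and the medians by complex kept their direction under every alternative run, and the count stayed within 1.5 times of 54. The count over 2-fold lower, 7, was 4 when libraries were scaled by total counts, 4 when the GC trend was subtracted and 3 without members that share reads. The summed level, 19283 TPM as a mean of both libraries, was 26608 TPM when rescaled without the mitochondrially encoded genes and the 5 genes of highest mean, and 8517 as counts per 1000000, a unit not divided by length. The sum was 23637 TPM with replicate 1 left out and 14929 TPM with replicate 2 left out, and the members detected were 85 and 72 in those cases. The median of complex II was 0.38 with the GC trend subtracted, and that of complex V was 0.82 without members that share reads. In all 87 alternative values stayed on their side and 5 moved. No paired analysis was possible because there is 1 group with 1 library per replicate number. Of the 18 members with under 10 counts in replicate 1, Cox7b2 and Cox8c were not tested, and low counts in that library leave the folds of the others known only within wide intervals.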
